A study of Mus musculus with 22 samples.

Results

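A set of 9 genes that encode regulators of small GTPases at synapses was followed through ribosome-bound and unbound RNA of the mouse CA1 field. They are Psd, Psd3, Iqsec1, Iqsec2, Agap2, Kalrn, Trio, Sipa1l1 and Rasgrp1. They were chosen by gene symbol, as 9 of the 29848 genes listed, and all 9 had a row for both parts of the transcript in both sequencing runs. The mice were C57BL/6 double transgenics with a Camk2a-driven tTA transactivator and a tetO-EGFP-L10a transgene, carried in every group, so that ribosomes of Camk2a-expressing neurons bear a tag that an antibody to GFP (HtzGFP-19C8) can pull down. Dendrites and cell bodies (soma) of CA1 were dissected apart in fear conditioned mice and in mice left in their home cage. The 22 samples were 11 libraries, which had each been run paired-end and again single-end, and both runs together counted as 1 replicate. There were 2 immunoprecipitates for each of fear conditioned dendrite, home cage dendrite, fear conditioned soma and home cage soma. The 3 supernatants, the RNA that stayed unbound, came from fear conditioned dendrite 2, home cage dendrite 2 and fear conditioned soma 2. The labels give no ages and do not tie libraries to animals, and any p-value here covers the spread between these libraries, which may be technical.

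Small GTPases switch between a GTP-bound active state and a GDP-bound inactive state. Guanine nucleotide exchange factors load GTP and switch them on, and GTPase-activating proteins speed up GTP hydrolysis and switch them off. In dendritic spines, Arf GTPases steer membrane and receptor traffic, Rac GTPases set the actin skeleton, and Ras and Rap GTPases carry signals from glutamate receptors to kinases. Psd and Psd3 (also known as EFA6A and EFA6D) and Iqsec1 and Iqsec2 (also known as BRAG2 and BRAG1) encode exchange factors for Arf GTPases, and Agap2 encodes an Arf GTPase-activating protein. Kalrn and Trio encode paralogous exchange factors that act on Rac, known for their effect on spine size and on axon growth. Sipa1l1, also called SPAR, encodes a Rap GTPase-activating protein of the postsynaptic density, and Rasgrp1 encodes a Ras exchange factor that responds to diacylglycerol and calcium.

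The deposited values were FPKM, fragments per kilobase of transcript and per M mapped fragments. One value covers the coding part of a transcript (with the 5′ UTR and the start of the 3′ UTR), and another the rest of the 3′ UTR. Values below are FPKM scaled between libraries and come from the paired-end run unless stated. The depth estimated from the spacing of low FPKM was 5.66 to 35.7 M fragments in the paired-end runs and 0.516 to 10.5 M reads in the single-end runs. Camk2a, the gene whose promoter drives the tag, was at 122, 373, 74.7 and 469 in the dendrite immunoprecipitates and at 26.4, 50.2, 34.4 and 12.2 in the soma immunoprecipitates. Summed over 10 astrocyte genes, the level was 142 to 210 in dendrite immunoprecipitates (median 199) and 3.01 to 58.3 in soma immunoprecipitates (median 17.2), without overlap. Summed over 8 pyramidal neuron genes it was 75.5 to 470 in dendrite and 31.6 to 126 in soma immunoprecipitates, most of it Camk2a in dendrite. Without Camk2a the sum of the other 7 ran the other way, at 0.807 to 14.6 in dendrite (median 3.32) and 10.99 to 75.4 in soma (median 17.8). Summed over 4 CA3 and CA2 genes it was 0.111 to 28.1 in dendrite (median 7.80) and 0 to 0.989 in soma immunoprecipitates (median 0.113), with 1 dendrite library in the soma range. Of these 4, Pcp4 and Bok were at 0 in all soma immunoprecipitates. Grik4 went the other way, at 0 in all dendrite immunoprecipitates but not in all soma ones. The sum over 7 interneuron genes was at most 16.1 in dendrite and 5.59 in soma immunoprecipitates, with Pvalb at 0 in all 8. The astrocyte sum, and in 3 of 4 dendrite libraries the CA3 and CA2 sum, moved with the dendrite and soma contrast. The part of such genes in the differences below was not tested. Fewer cells of a type and less RNA per cell cannot be told apart in such samples. Some libraries stood apart. In the paired-end run 5 of the 8 immunoprecipitates, and in the single-end run 6, were more like a supernatant than like any other immunoprecipitate, by r across genes. The fear conditioned dendrite immunoprecipitate 1 had the highest such r in the paired-end run (0.79 with the nearest supernatant, 0.55 with the nearest immunoprecipitate), and the fear conditioned soma immunoprecipitate 2 in the single-end run (0.70 and 0.53; 0.68 and 0.55 paired-end). In the home cage soma immunoprecipitate 2 the ribosomal protein gene Rpsa took 74.0% of the summed FPKM in the paired-end run and 1.57% in the single-end run. Its values were divided by the lowest scale factor of the 8, 0.199 and 0.271 in the 2 runs.

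The members differed several-fold in level from library to library. In the coding part, Psd3, Agap2 and Sipa1l1 were the highest of the 9 in dendrite immunoprecipitates, with means of 13.8, 12.8 and 10.9, and Kalrn was the highest in soma immunoprecipitates with 9.57. Iqsec1 and Rasgrp1 were low throughout: no immunoprecipitate exceeded 1.37 for Iqsec1 or 2.54 for Rasgrp1. In the paired-end coding part, all immunoprecipitates with a member at 0 were home cage libraries, which did not hold in the single-end run, where Rasgrp1 was at 0 in the fear conditioned dendrite immunoprecipitate 1 and Psd in the fear conditioned soma immunoprecipitate 1. The home cage soma immunoprecipitate 2 listed Iqsec1, Iqsec2, Psd and Rasgrp1 at 0, the home cage dendrite immunoprecipitate 1 listed Kalrn and Trio at 0, the home cage dendrite immunoprecipitate 2 listed Rasgrp1 at 0, and the home cage soma immunoprecipitate 1 listed Psd and Psd3 at 0. One fragment of Kalrn is worth 0.0192 FPKM in the home cage dendrite immunoprecipitate 1 and 0.00361 in the fear conditioned soma immunoprecipitate 2, so that a 0 in the first says less than a 0 in the second. An FPKM of 0 is given below as listed at 0, since it can also be a failed estimate.

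The first comparison asked which regulators differ between ribosome-bound RNA of dendrites and of cell bodies. The members did not move one way. Kalrn, Trio and Rasgrp1 had higher means in soma immunoprecipitates, while Psd3, Agap2, Psd and Sipa1l1 had higher means in dendrite immunoprecipitates, and Iqsec1 and Iqsec2 had similar means. None of the 7 members whose mean scaled FPKM reached 1 passed the test (limma with Benjamini-Hochberg adjustment over 2935 genes), and 0% of all genes tested passed it. At an unadjusted p under 0.05, Psd3 lay among the 1.81% of genes higher in dendrite and Kalrn among the 2.62% higher in soma. The median log2 difference was 0.95 over the 7 members and −0.33 over all 2935 genes, and 4 of 7 members against 42.1% of all genes were positive. The median of all genes was 0.12 without scaling, and differences below are relative to the scaled libraries.

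**Figure D1:**
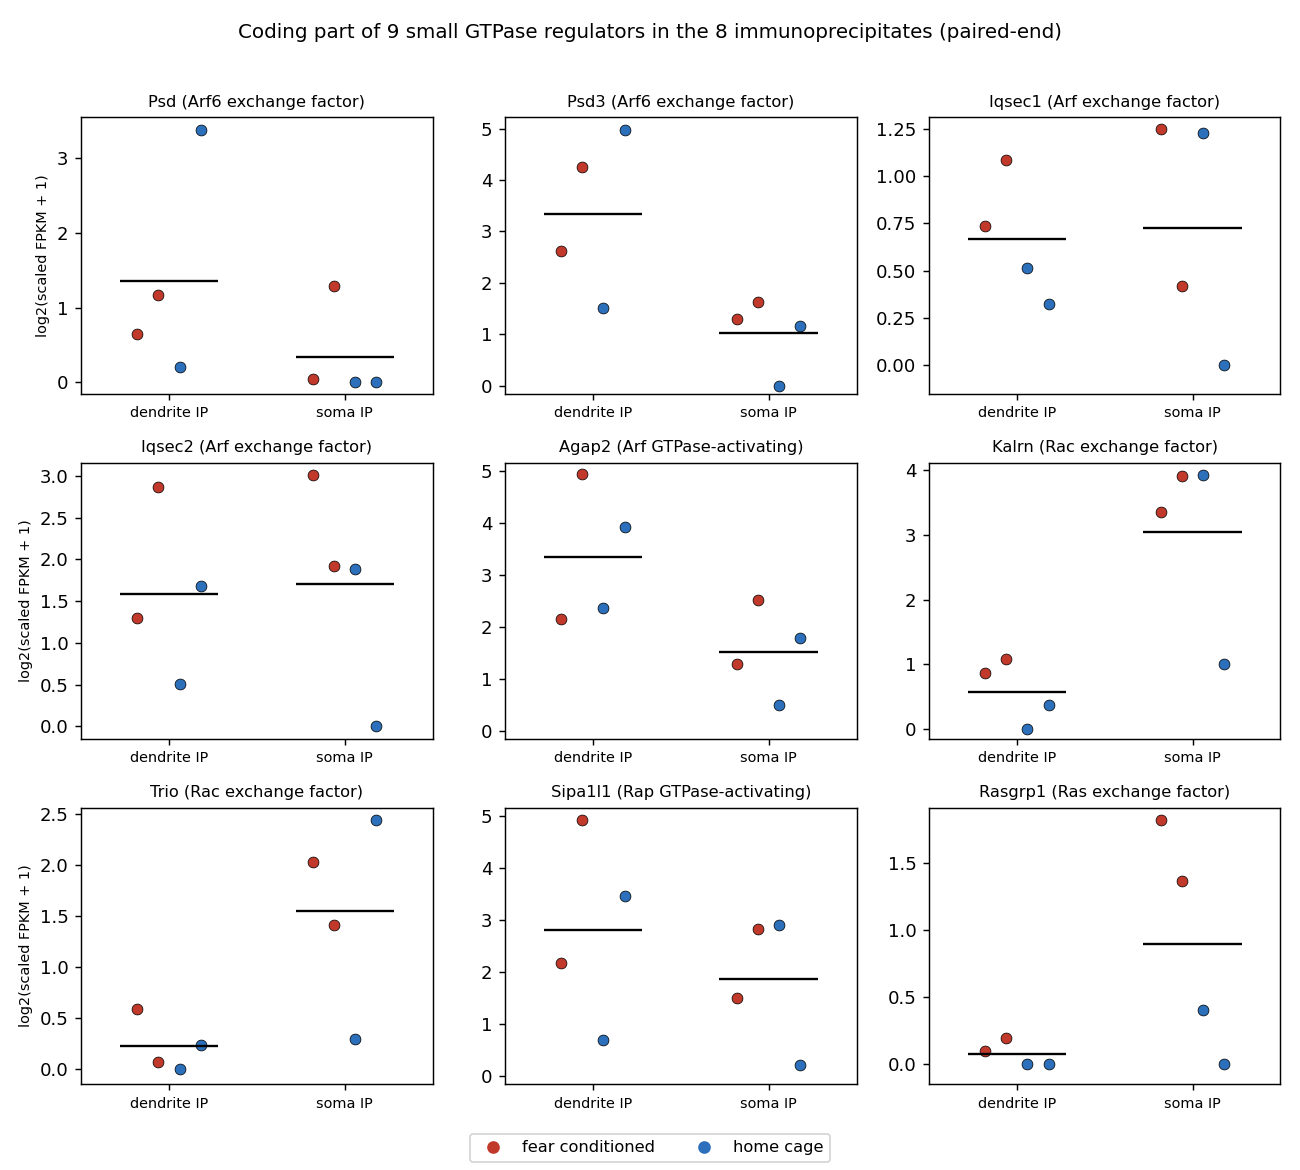
Coding-part level of each regulator in the 8 paired-end immunoprecipitates, as log2(scaled FPKM + 1), with dendrite left of soma, 1 point per library (red, fear conditioned; blue, home cage) and a line at the group mean. Kalrn and Trio lie higher in most soma libraries, Psd3 and Agap2 higher in most dendrite libraries, and all 9 panels show at least 1 library of one group within the range of the other.

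Among the Arf exchange factors, Psd3 (chromosome 8, 70212981 to 70586185, minus strand) had 5.15 and 18.04 in fear conditioned dendrite and 1.86 and 30.3 in home cage dendrite immunoprecipitates, against 1.45 and 2.08 in fear conditioned soma, listed at 0 in home cage soma 1 and 1.25 in home cage soma 2. Only the home cage dendrite library 1, at 1.86, fell below the highest soma library, at 2.08. The means were 13.8 ± 13.0 in dendrite and 1.20 ± 0.873 in soma libraries (SD, n = 4 each), a log2 difference of 2.32 (SE 1.07, 95% interval 0.0077 to 4.63, adjusted p = 0.657 in limma). The two-sided exact permutation test of 4 against 4 libraries gave p = 0.0571, where 0.0286 is the smallest it can give. Psd3 was thus several-fold higher in dendrite on average, with a spread in dendrite as large as its mean.

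Psd (chromosome 19, 46386577 to 46401646, minus strand), its paralog, had 0.567 and 1.24 in fear conditioned dendrite and 0.158 and 9.36 in home cage dendrite immunoprecipitates, against 0.0318 and 1.44 in fear conditioned soma and 0 in both home cage soma libraries. Most of the dendrite mean, 2.83 ± 4.38 against 0.369 ± 0.717 in soma (SD, n = 4 each), came from the home cage dendrite library 2. The log2 difference was 1.02 (SE 0.87, 95% interval −0.86 to 2.89), with an adjusted p = 0.657 in limma and an exact permutation p = 0.2. In the single-end run Psd had 4.44, 13.9, 0 and 12.2 in dendrite, libraries in the same order, against 0, 0.621, 0 and 0 in the soma libraries. There the log2 difference was 2.34 (SE 0.98, unadjusted p = 0.0346, adjusted p = 0.676 in limma), more than 1.5 times that of the paired-end run. The paralogs shared their direction in both runs, with overlapping libraries in each.

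Iqsec1 (chromosome 6, 90609592 to 90760117, minus strand) had 0.667 and 1.12 in fear conditioned dendrite and 0.428 and 0.252 in home cage dendrite immunoprecipitates, against 1.37 and 0.338 in fear conditioned soma and 1.35 and 0 in home cage soma. At these levels it missed the expression minimum and was not fitted, and the exact permutation p was 0.857. Iqsec2 (chromosome X, 148578811 to 148659779, plus strand) had 1.46 and 6.28 in fear conditioned dendrite and 0.418 and 2.21 in home cage dendrite immunoprecipitates, against 7.05 and 2.78 in fear conditioned soma and 2.70 and 0 in home cage soma. Both groups covered nearly the same range. The log2 difference was −0.12 with a 95% interval of −2.12 to 1.89 (adjusted p = 0.952 in limma), which leaves room for a difference of more than 1 log2 unit either way, and its sign turned with the pseudocount (0.26 at 0.1) and without scaling (0.19).

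Agap2 (chromosome 10, 126515963 to 126530225, plus strand) had 3.42 and 29.6 in fear conditioned dendrite and 4.14 and 14.0 in home cage dendrite immunoprecipitates, against 1.44 and 4.70 in fear conditioned soma and 0.418 and 2.47 in home cage soma. It was above 0 in all 11 libraries of both runs, the only member of which that held. The fear conditioned soma library 2, at 4.70, was the only soma library above any dendrite library. The means were 12.8 ± 12.2 in dendrite and 2.26 ± 1.83 in soma (SD, n = 4 each), a log2 difference of 1.81 (SE 1.07, 95% interval −0.50 to 4.13, adjusted p = 0.657 in limma, exact permutation p = 0.0857).

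Kalrn (chromosome 16, 33969159 to 34514113, minus strand) gave the widest soma excess of the 9, as a difference of mean log2(scaled FPKM + 1). It had 0.814 and 1.11 in fear conditioned dendrite, listed at 0 in home cage dendrite 1 and 0.293 in home cage dendrite 2, against 9.18 and 14.0 in fear conditioned soma and 14.1 and 1.00 in home cage soma. All soma libraries but the home cage soma library 2, which lay just below the highest dendrite library, were far above the dendrite range. The means were 0.553 ± 0.499 in dendrite and 9.57 ± 6.16 in soma (SD, n = 4 each), a log2 difference of −2.47 (SE 0.96, 95% interval −4.53 to −0.40, adjusted p = 0.657 in limma, exact permutation p = 0.0571). Without the home cage soma library 2, which leaves only the other home cage soma library in its group, the log2 difference was −3.20, where the median of all genes was −0.20. The single-end run had Kalrn at 1.08 and 1.05 in fear conditioned dendrite and 1.81 and 0.369 in home cage dendrite, against 12.4 and 17.4 in fear conditioned soma and 14.95 and 1.66 in home cage soma, a log2 difference of −2.33 (SE 0.99, adjusted p = 0.676 in limma). The same soma library was again the only one that overlapped dendrite.

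Trio (chromosome 15, 27660404 to 27955603, minus strand), the paralog of Kalrn, had 0.498 and 0.0485 in fear conditioned dendrite, listed at 0 in home cage dendrite 1 and 0.177 in home cage dendrite 2, against 3.08 and 1.66 in fear conditioned soma and 0.220 and 4.42 in home cage soma. Only the home cage soma library 1 fell below the highest dendrite library. As deposited, the home cage soma library 2 did so too, at 0.881 FPKM against 1.12 in the fear conditioned dendrite library 1 (exact permutation p = 0.2). The log2 difference was −1.32 (SE 0.79, 95% interval −3.03 to 0.39, adjusted p = 0.657 in limma, exact permutation p = 0.0571). In the single-end run it was −0.075 (SE 1.07). There Trio had 21.3, 0.0781, 0.50 and 0.550 in the dendrite libraries in the same order, against 1.05, 7.26, 0.977 and 1.06 in the soma libraries. The fear conditioned dendrite library 1, at 0.498 in its paired-end run, was above all 4 soma libraries, and the other 3 dendrite libraries were below all 4.

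Sipa1l1 (chromosome 12, 83270407 to 83552771, plus strand) had 3.54 and 29.4 in fear conditioned dendrite and 0.615 and 9.98 in home cage dendrite immunoprecipitates, against 1.84 and 6.06 in fear conditioned soma and 6.49 and 0.165 in home cage soma. The groups overlapped over most of their range, with a log2 difference of 0.95 (SE 1.15, 95% interval −1.55 to 3.45, adjusted p = 0.681 in limma, exact permutation p = 0.486). Rasgrp1 (chromosome 2, 117105729 to 117168613, minus strand) had 0.0673 and 0.142 in fear conditioned dendrite, 1.94e-09 in home cage dendrite 1 and 0 in home cage dendrite 2, against 2.54 and 1.58 in fear conditioned soma and 0.320 and 0 in home cage soma. It missed the expression minimum, and the exact permutation p was 0.143. In the single-end run it passed the minimum: 0, 0.234, 9.48e-09 and 0 in the dendrite libraries against 3.17, 6.42, 2.83 and 0.720 in the soma libraries, without overlap (exact permutation p = 0.0286, log2 difference −1.84, SE 0.78, adjusted p = 0.676 in limma). As deposited the groups overlapped, with 0.307 FPKM in the fear conditioned dendrite library 2 and 0.195 in the home cage soma library 2. The coding part of Rasgrp1 shares 347 of its 2754 bases with a same-strand row of the tables named Rasgrp, which had 20.4 FPKM as deposited in the home cage dendrite library 1 and 2.21 and 14.4 in the fear conditioned soma libraries, so fragments may have been split between the rows.

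Complete separation of dendrite and soma was rare among the members. In the paired-end coding part 0 of 9 separated, beside 1.87% of the 2935 tested genes higher and 2.15% lower in every dendrite library. In the single-end coding part 1 of 9 did (Rasgrp1, lower in dendrite, as 3.05% of genes tested there were, while 0.833% were higher). Within each behaviour taken alone, Psd3 had both dendrite values above both soma values, and Kalrn and Trio had them below, in fear conditioned and in home cage mice alike. That held for 2.76% of tested genes in the first direction and 3.92% in the second. As deposited it held, of these genes, for Psd3 alone: home cage dendrite 2 exceeded a home cage soma library for Kalrn (0.427 and 0.200 FPKM) and Trio (0.258 and 0.108). In the single-end run it held for none of them. Scaled, Kalrn had 1.81 in home cage dendrite and 1.66 in home cage soma. Trio had 21.3 and 1.05, and Psd3 4.54 and 10.7, in fear conditioned dendrite and soma. Without the fear conditioned dendrite library 1 and the home cage soma library 2, Kalrn, Trio and the untested Rasgrp1 were lower in every dendrite library and no member was higher in all of them, where 11.9% of tested genes were lower and 3.75% higher. As deposited, Trio (0.258 FPKM in home cage dendrite 2, 0.108 in home cage soma 1) and Rasgrp1 (0.248 in fear conditioned dendrite 2, 0.157 in home cage soma 1) overlapped there. Both counts were added after the values were seen. Leaving out the fear conditioned dendrite library 1 alone gave log2 differences of 2.72 for Psd3, 2.51 for Agap2 and −2.41 for Kalrn.

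**Figure D2:**
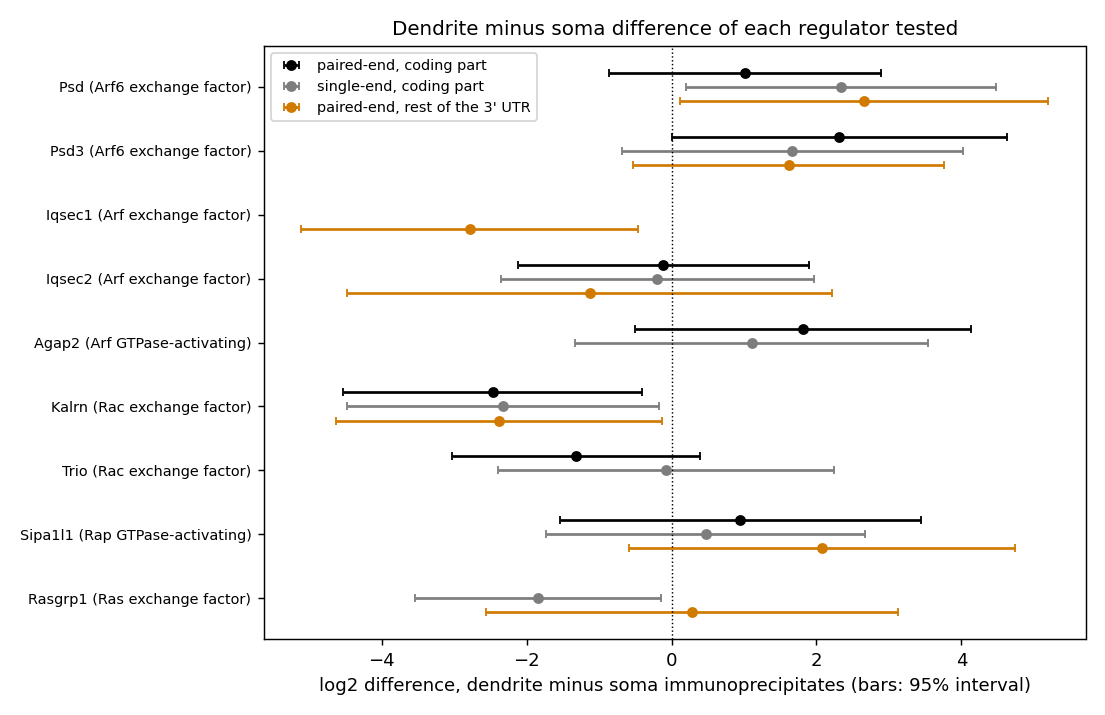
Log2 difference, dendrite minus soma immunoprecipitates, of each regulator that passed the expression minimum, from the limma fits with 95% intervals (black, paired-end coding part; grey, single-end coding part; orange, paired-end rest of the 3′ UTR). Kalrn lies left of 0 in all 3 measures, at −2.47, −2.33 and −2.38, and so does Iqsec2, at −0.12, −0.19 and −1.13. Psd, Psd3 and Sipa1l1 lie right of 0 in all 3.

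The rest of the 3′ UTR was a second measure of the same libraries, counted on other bases. Kalrn had 0.710 and 0.311 in fear conditioned dendrite and 0 in both home cage dendrite libraries, against 6.98 and 10.5 in fear conditioned soma and 16.8 and 0 in home cage soma. The home cage soma library 2 was again the only low one, and the log2 difference was −2.38 (SE 1.06, unadjusted p = 0.0395, adjusted p = 0.618 in limma). Iqsec1 had 0.955 and 0.762 in fear conditioned dendrite and 0 and 0.012 in home cage dendrite, against 10.1 and 0.992 in fear conditioned soma and 5.31 and 55.4 in home cage soma. Here all 4 dendrite values lay below all 4 soma values (exact permutation p = 0.0286, log2 difference −2.79, SE 1.09, adjusted p = 0.618 in limma), which its coding part did not show. The separation came with the scaling: unscaled, Iqsec1 was at 2.33 FPKM in fear conditioned dendrite 1 and at 2.04 in home cage soma 1. It was the only one of the 9 to separate in this measure, as 2.57% of the 2137 genes tested there did in that direction and 1.22% in the other, and in the single-end run its 3′ UTR overlapped (exact permutation p = 0.486). For Kalrn the single-end 3′ UTR gave 0.223 and 0.534 in the fear conditioned dendrite libraries and 0 in both home cage ones, against 43.8 and 39.6 in fear conditioned soma and 19.4 and 1.03 in home cage soma. It was the only member to separate there (exact permutation p = 0.0286), as 2.47% of the 2592 genes tested did in that direction and 0.54% in the other, and it overlapped as deposited, with 0.651 FPKM in the fear conditioned dendrite library 2 and 0.207 in the home cage soma library 2.

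Psd3 had 4.74 and 8.74 in fear conditioned dendrite and 9.66 and 2.86 in home cage dendrite for its 3′ UTR, against 2.39 and 2.99 in fear conditioned soma and 0.131 and 0.707 in home cage soma. Only the home cage dendrite library 2, at 2.86, fell below the highest soma library, and the log2 difference of 1.62 (SE 1.01, adjusted p = 0.618 in limma) had the sign of the coding part. Psd had 62.0 and 36.6 in fear conditioned dendrite and 183 and 329 in home cage dendrite, against 31.5 and 79.9 in fear conditioned soma and 0.741 and 18.8 in home cage soma, a log2 difference of 2.66 (SE 1.19, unadjusted p = 0.0414, adjusted p = 0.618 in limma). The fear conditioned soma library 2 lay above both fear conditioned dendrite libraries. In the single-end run the Psd 3′ UTR was at 124, 44.6, 14.0 and 16.1 in dendrite, libraries in the same order, against 10.8, 70.8, 0 and 140 in soma. The means of 49.7 in dendrite and 55.3 in soma lay the other way there, while the log2 difference stayed positive at 0.90 (exact permutation p = 0.686). These Psd fragments cannot be given to Psd with certainty: 299 of the 414 bases (72.2%) overlap the 3′ UTR of Nfkb2 on the other strand, and whether the counting used strand is not stated in the labels. The coding part of Nfkb2 was at most 0.825 FPKM as deposited in any library, and its 3′ UTR reached 1.85 and 7.26 FPKM in the fear conditioned dendrite immunoprecipitates and 7.35 in the fear conditioned soma immunoprecipitate 2, with 0.254 or less in the others.

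**Figure D3:**
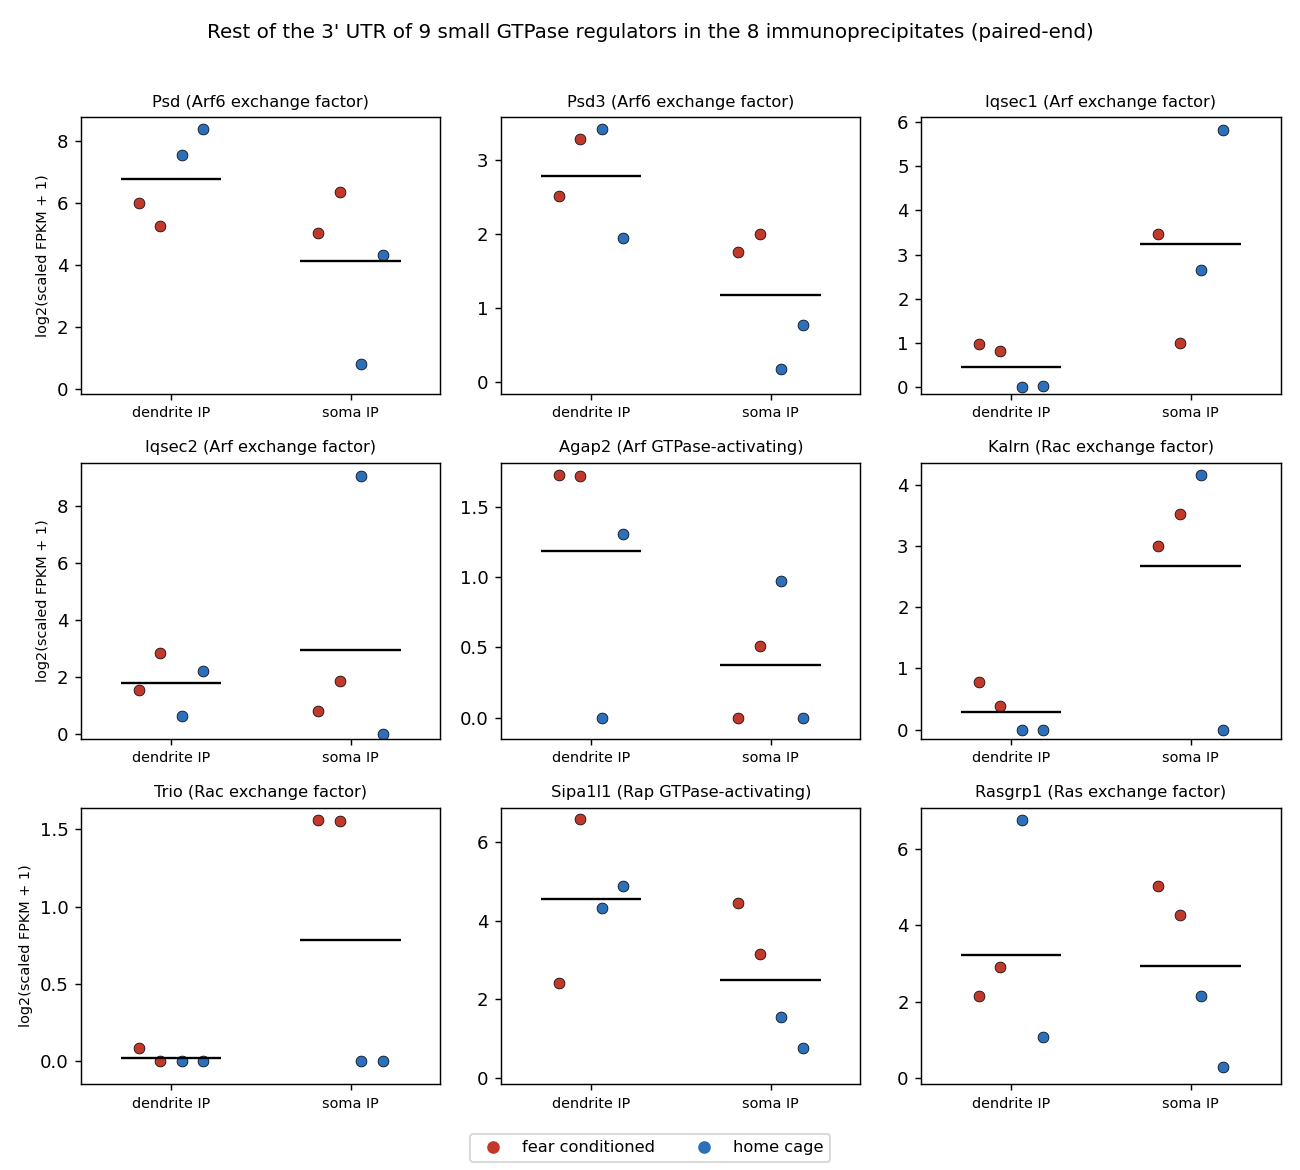
Level of the rest of the 3′ UTR of each regulator in the 8 paired-end immunoprecipitates, as log2(scaled FPKM + 1), with dendrite left of soma, 1 point per library (red, fear conditioned; blue, home cage) and a line at the group mean. The Iqsec1 panel has every dendrite library below every soma library, and single libraries far above the rest appear for Iqsec2 and Rasgrp1.

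Other 3′ UTR values rested on 1 library. Iqsec2 had 536 in the home cage soma library 1, against at most 6.19 in dendrite and at most 2.69 in the other soma libraries; in the single-end run the same library had 39.6. Rasgrp1 had 106 in the home cage dendrite library 1 and 31.7 and 18.2 in the fear conditioned soma libraries, with 6.48 or less in the other dendrite and 3.43 or less in the other soma libraries. In the single-end run that dendrite library had 0.977, and the means turned, at 2.44 in dendrite and 9.12 in soma, against 29.3 and 13.4 in the paired-end run. Sipa1l1 had 4.35 and 95.3 in fear conditioned dendrite and 19.2 and 28.9 in home cage dendrite, against 21.0 and 7.94 in fear conditioned soma and 1.95 and 0.711 in home cage soma, a log2 difference of 2.07 (SE 1.25, adjusted p = 0.618 in limma). Agap2 and Trio missed the minimum there. Agap2 was at most 2.31 in dendrite and 0.966 in soma, and Trio had 0.058 in the fear conditioned dendrite library 1, 1.95 and 1.94 in the fear conditioned soma libraries and 0 in the others.

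Per base, the members also differed in how their signal was split between 3′ UTR and coding part, a ratio within a library that no scaling touches. The 3′ UTR value was above the coding value in 9 of 9 libraries for Psd (median ratio 73.3, range 19.2 to 1635, with the overlap named above) and in 8 of 8 for Rasgrp1 (median 12.4, range 4.83 to 54.7). It was above it in 10 of 11 for Sipa1l1 (median 2.51), but in 6 of 10 in the single-end runs (median 2.00). Iqsec1, Iqsec2 and Kalrn had medians of 1.68, 1.22 and 0.973, and of 3.16, 0.753 and 0.469 in the single-end runs. Psd3, Trio and Agap2 had more coding signal, with medians of 0.512, 0.135 and 0.119, and the ratio was above 1 in 4 of 10, 4 of 10 and 3 of 11 libraries. In the single-end runs the medians of Psd and Rasgrp1 were 20.1 and 2.87, and those of Trio and Agap2 0.0138 and 0.304. The annotation holds 8 transcript models of Kalrn and 7 of Psd3, so their ratios mix transcript forms.

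The second comparison asked whether fear conditioning changed ribosome-bound levels of the regulators. In dendrite immunoprecipitates no member passed (0% of 2935 genes called, all 7 members at adjusted p = 1 in limma), and none had an unadjusted p under 0.05, as 2.01% of genes did in the higher and 1.16% in the lower direction. The members had log2 differences from −0.89 for Psd to 1.48 for Sipa1l1. Of the 7 tested members 1, Kalrn (0.814 and 1.11 against 0 and 0.293), was higher in both fear conditioned than in both home cage libraries, where 25.3% of tested genes were; 7.97% were lower in both, as was no member. The untested Iqsec1 (0.667 and 1.12 against 0.428 and 0.252) and Rasgrp1 (0.0673 and 0.142 against 1.94e-09 and 0) were also higher in both. All 3 were at low levels, and in the single-end run 0 of 9 separated, where 19.6% of tested genes were higher and 6.19% lower. The exact test cannot go below p = 0.333 with 2 libraries against 2. Agap2, Psd3 and Sipa1l1 each had 1 high and 1 low library in both behaviours, so that their log2 differences of 0.40, 0.19 and 1.48 had 95% intervals of −2.87 to 3.68, −3.07 to 3.46 and −2.05 to 5.01.

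In soma immunoprecipitates all 7 fitted members had a positive log2 difference, fear conditioned minus home cage, from 0.36 for Trio to 1.52 for Iqsec2, where 55.9% of tested genes were positive, and none passed (0% called; adjusted p from 0.648 to 0.958 in limma). None had an unadjusted p under 0.05, as 4.05% of genes did upward and 2.04% downward. The median was 0.75 over the 7 members and 0.16 over all genes. Without scaling both were higher, at 1.86 and 1.21. Iqsec2 (7.05 and 2.78 against 2.70 and 0), Psd (0.0318 and 1.44 against 0 and 0) and Psd3 (1.45 and 2.08 against 0 and 1.25) were higher in both fear conditioned libraries, 3 of the 7 tested members, beside 29.1% of tested genes; no member and 10.5% of tested genes were lower in both. The untested Rasgrp1 (2.54 and 1.58 against 0.320 and 0) was also higher in both. In the single-end run Iqsec2, Sipa1l1 and Rasgrp1 were higher in both and no member was lower, where 27.5% of tested genes were higher and 7.18% lower, so that Psd and Psd3 overlapped there. The home cage soma library 2 had Iqsec2, Psd and Rasgrp1 at 0. Without it the log2 differences of Kalrn and Sipa1l1 were −0.30 and −0.74, and without the home cage soma library 1 that of Trio was −0.72. Kalrn itself had 9.18 and 14.0 in fear conditioned soma against 14.1 and 1.00 in home cage soma, and so overlapped.

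The third comparison asked whether the response to fear conditioning differed between dendrite and soma. No member's interaction passed (0% of 2935 genes called; adjusted p from 0.736 for Psd to 0.972 for Trio in limma), or had an unadjusted p under 0.05, as 1.19% of genes did in the positive and 1.7% in the negative direction. The largest was Psd, with −1.55 (SE 1.73), and its 95% interval of −5.30 to 2.20 shows how little 2 libraries per group can bound. The intervals of the other 6 members also spanned 0 by more than 3 log2 units on each side.

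The fourth comparison set the tagged-ribosome RNA against the unbound supernatants. With location and behaviour as covariates, none of the 8 members tested passed between immunoprecipitates and supernatants (adjusted p of 0.998 to 0.999 in limma over 2972 genes, of which 0.0336% were called), and none had an unadjusted p under 0.05, as 1.04% of genes did upward and 3.26% downward. The log2 differences, immunoprecipitate minus supernatant, ran from −0.88 for Psd3 (SE 0.94) to 0.51 for Agap2 (SE 0.90). All 9 overlapped, beside 0.841% of tested genes higher and 1.21% lower in every immunoprecipitate. Scaled over the 11 libraries, which shifts the immunoprecipitate values slightly, the 3 supernatants of each member lay inside the range of the 8 immunoprecipitates, except that 1 supernatant of Iqsec1 and 1 of Rasgrp1 lay above it. By their labels the 3 supernatants belong to the immunoprecipitates of the same dissection and number. Within all 3 such pairs Agap2 and Sipa1l1 were higher in the immunoprecipitate, as 7.13% of tested genes were, and Iqsec1 and Rasgrp1 lower, as 24.1% were, Iqsec1 itself being untested. Agap2 had 27.3, 13.6 and 4.61 in the immunoprecipitates (fear conditioned dendrite, home cage dendrite, fear conditioned soma), against 3.41, 6.39 and 2.33 in their supernatants, and Sipa1l1 had 27.1, 9.66 and 5.94 against 4.36, 9.10 and 5.46. Iqsec1 had 1.03, 0.244 and 0.331 in the immunoprecipitates against 2.82, 1.27 and 1.04, and Rasgrp1 had 0.132, 0 and 1.54 against 0.171, 0.216 and 6.18. A fit over these 3 pairs, added after the values were seen, called no member and no gene (0 of 2972), with a log2 difference of 1.47 for Agap2 (SE 0.74, adjusted p = 0.631 in limma). In the single-end run, once scaled, neither Agap2 nor Sipa1l1 was higher in all 3 immunoprecipitates. There Sipa1l1 had 6.59 FPKM as deposited in the fear conditioned dendrite immunoprecipitate 2 against 20.1 in its supernatant. Agap2 had 5.62 FPKM as deposited in the fear conditioned soma immunoprecipitate 2 against 5.41 in its supernatant. The scale factors of 1.82 and 0.973 turned that order.

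**Figure D4:**
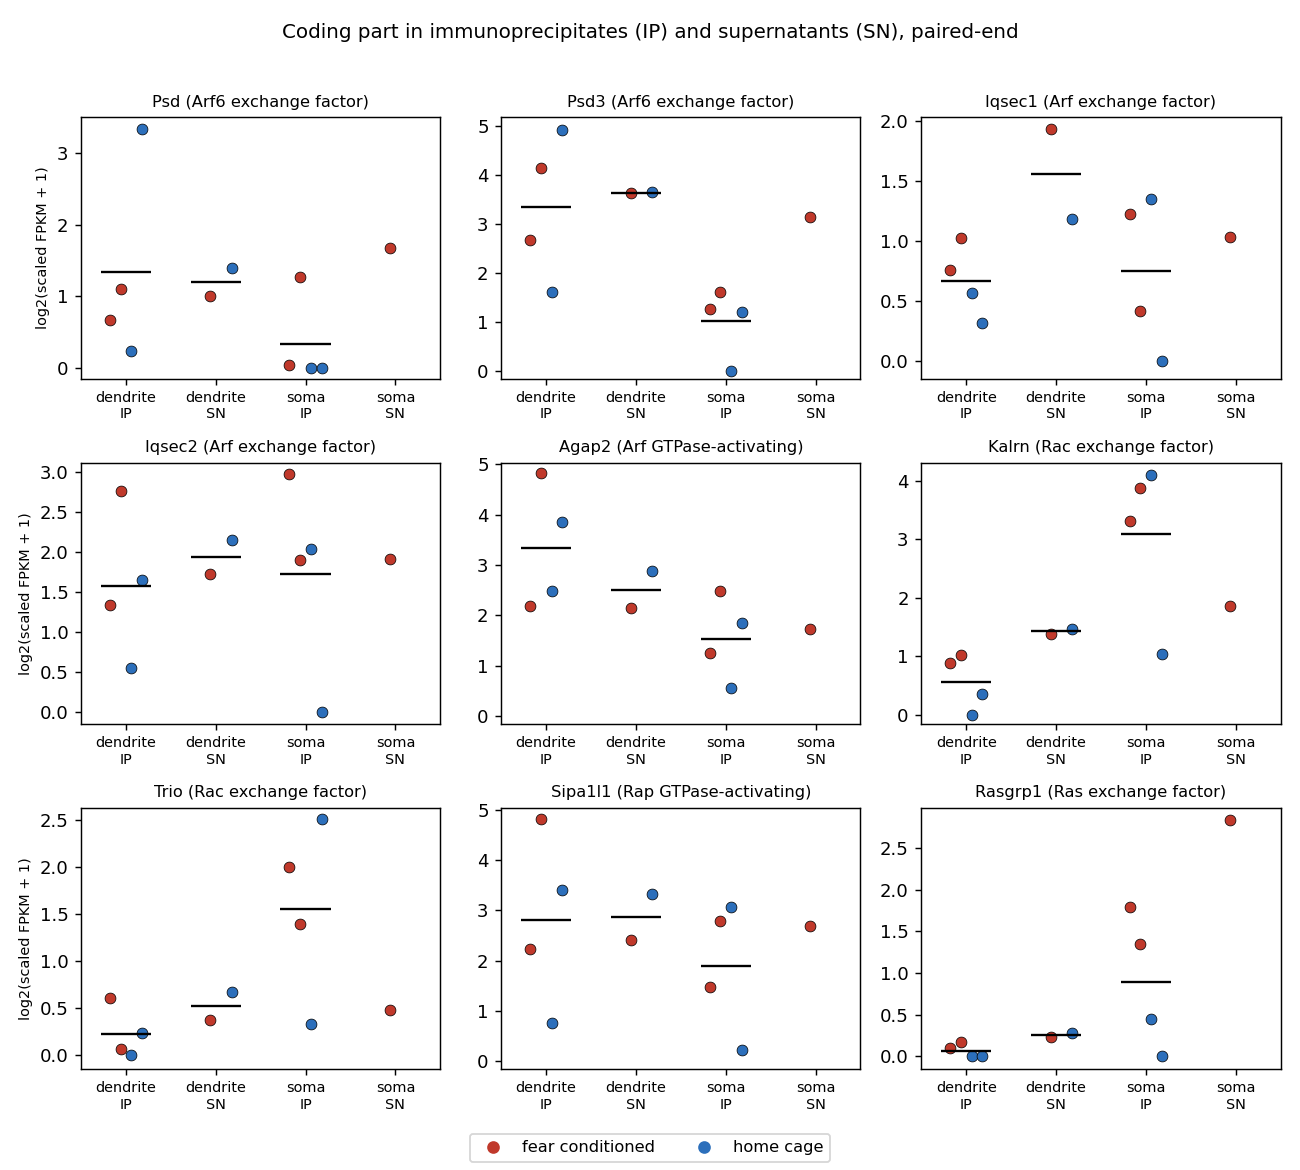
Coding-part level of each regulator, as log2(scaled FPKM + 1) over the 11 paired-end libraries, in dendrite immunoprecipitates (IP) and supernatants (SN) and in soma immunoprecipitates and the 1 soma supernatant, with 1 point per library (red, fear conditioned; blue, home cage) and a line at the mean of groups of 2 or more. The 2 dendrite supernatants lie within 1 unit of each other in every panel, while the dendrite immunoprecipitates of Iqsec2, Psd, Psd3, Agap2 and Sipa1l1 span more than 2 units.

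Psd3 was at 0 to 29.3 in the immunoprecipitates, against 11.3 and 11.6 in the dendrite supernatants (fear conditioned, home cage) and 7.83 in the soma supernatant. Agap2 was at 0.480 to 27.3 in the immunoprecipitates, against 3.41 and 6.39 in the dendrite supernatants and 2.33 in the soma supernatant. In both genes the soma supernatant was the lowest of the 3, and the soma immunoprecipitates also had the lower mean. Sipa1l1 was at 0.174 to 27.1 in the immunoprecipitates, against 4.36, 9.10 and 5.46 in the supernatants in that order. Kalrn was at 0 to 16.2 in the immunoprecipitates, against 1.62 and 1.77 in the dendrite supernatants and 2.64 in the soma supernatant. All 3 supernatants were thus above the 4 dendrite immunoprecipitates and above only 1 of the 4 soma immunoprecipitates. Rasgrp1 was at 0 to 2.47 in the immunoprecipitates, against 0.171 and 0.216 in the dendrite supernatants and 6.18 in the soma supernatant, so unbound RNA had it higher in soma too, in a single library. Iqsec1 was at 0 to 1.54 in the immunoprecipitates, against 2.82, 1.27 and 1.04 in the supernatants. In the fear conditioned dendrite, home cage dendrite and fear conditioned soma supernatants, Iqsec2 was at 2.31, 3.45 and 2.78, Psd at 1.01, 1.62 and 2.19, and Trio at 0.294, 0.587 and 0.387, all within the range of their immunoprecipitates. With 1 soma supernatant no test of location in unbound RNA was made.

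The wider families gave the members a background. The lists were drawn up with results of these data known. None of the tested genes of these lists passed in the dendrite and soma comparison. Of 31 other Arf regulators 6 were tested, 3 with a positive and 3 with a negative difference (median 0.38). Of 39 Ras and Rap regulators 16 were tested, 7 positive and 9 negative (median −0.26). Of 39 small GTPases 12 were tested, 6 each way (median 0.06). All of these medians lay above the −0.33 of all genes, and none was tested.

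**Figure D5:**
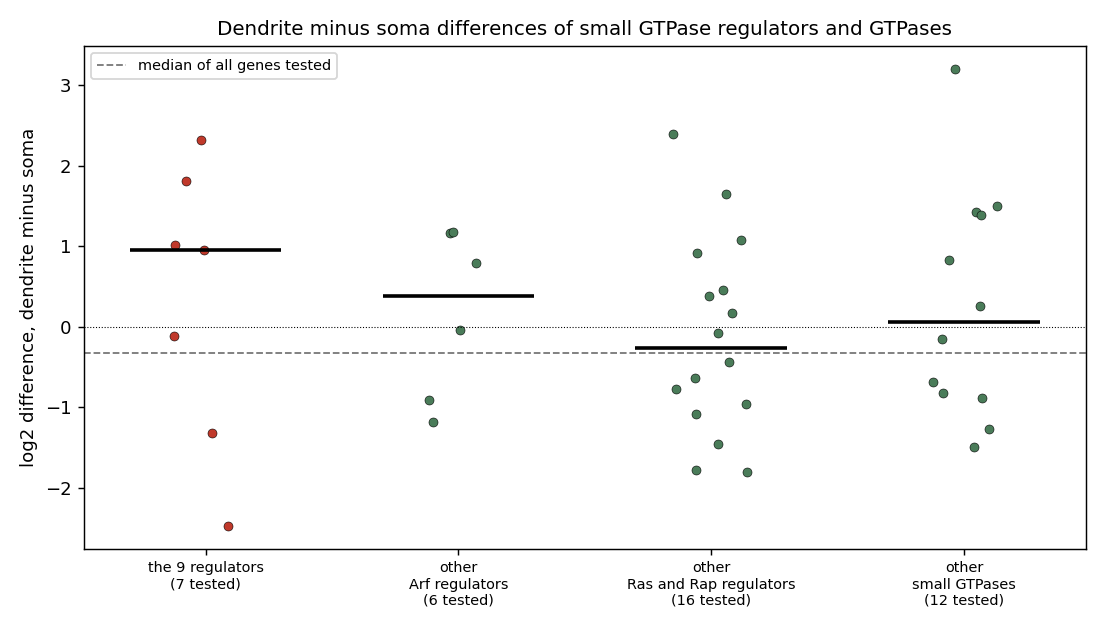
Dendrite minus soma log2 difference of each tested gene in the 9 regulators and in 3 wider lists that leave the 9 out, with a bar at the list's median (0.95 for the 7 tested members) and a dashed line at the median of all genes tested, −0.33. Each list spreads to both sides of 0.

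The 2 most abundant tested genes of each wider list were named. Git1, an Arf GTPase-activating scaffold, was at 5.46, 8.14, 6.66 and 9.46 in the dendrite libraries (fear conditioned 1 and 2, home cage 1 and 2), against 1.34, 3.65, 2.46 and 3.99 in the soma libraries in the same order. The groups did not overlap, with 7.43 ± 1.74 in dendrite and 2.86 ± 1.20 in soma (SD, n = 4 each), a log2 difference of 1.16 (SE 0.96, adjusted p = 0.657 in limma). Arf3, a small GTPase of the Golgi, was at 32.2, 323, 105 and 107 in dendrite, against 14.6, 44.6, 2.86 and 5.33 in soma. Its log2 difference of 3.20 (SE 1.16, 95% interval 0.68 to 5.72, unadjusted p = 0.0167, adjusted p = 0.657 in limma) was the widest of all list genes, with 1 soma library above the lowest dendrite library. Rasgrf1, a calcium-responsive Ras exchange factor, was at 2.85, 7.62, 0.0418 and 3.84 in dendrite, against 32.2, 22.9, 5.56 and 0.788 in soma (log2 difference −1.45, SE 1.05). The other 3 named genes each had 1 library far above the rest. Smap2 (17.02) and Rhoa (38.6) had it in a home cage dendrite library, with log2 differences of 1.18 and 1.42, and Rapgef5 (51.9) in a home cage soma library, with −1.80.

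Outside that rule, and named after its values were seen, 1 gene of the lists reported here separated completely with an unadjusted p under 0.05. It was higher in every dendrite library, as 1.87% of the 2935 tested genes were. Rapgef4, a cyclic AMP-responsive Rap exchange factor, had 8.69 ± 5.87 in dendrite libraries and 0.569 ± 0.454 in soma libraries (SD, n = 4 each; log2 difference 2.40, adjusted p = 0.657 in limma). In the fear conditioning, interaction and supernatant comparisons none of the list genes passed either.

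The genes with the most similar pattern were taken over 11 libraries, by Pearson's r of log2(scaled FPKM + 1) across 2972 genes, for each member above 0 in at least 8 libraries. The libraries share tissue, depth and scaling, so r describes them only. Kalrn was nearest to Grm5 (0.95), a metabotropic glutamate receptor gene, and Akap11 (0.95), a kinase anchoring protein gene. Psd and Psd3 shared their nearest gene, Atpif1 (0.94 for each), an inhibitor of the mitochondrial ATP synthase, and had an r of 0.81 with each other; the next nearest were BC056474 (0.93) for Psd and Epb4.1l1 (0.92) for Psd3. Agap2 was nearest to Tnpo2 (0.90) and to Arf3 (0.87), and it had an r of 0.79 with Psd3. Iqsec2 was nearest to Slc17a7 (0.92), which encodes the vesicular glutamate transporter of these neurons, and to Myt1l (0.84). Sipa1l1 was nearest to Cs (0.94), which encodes citrate synthase, and to Mtap2 (0.91), which encodes a dendritic microtubule protein. Trio was nearest to Cdk11b (0.95) and Psme4 (0.93), and its r with Kalrn was 0.34. Iqsec1 was nearest to Ube2r2 (0.84), and its r with Iqsec2 was 0.59. Rasgrp1 was nearest to a row listed under a clone identifier (0.98) and to Epb4.9 (0.96). With Kalrn, Psd3 had an r of −0.60 and Agap2 one of −0.58.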

How the data were processed

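Paired-end and single-end runs of 11 RNA libraries were used. Per the labels' protocols, RNA went through Nugen Ovation RNA-Seq V2 amplification, a nuclease that removes single strands and the TruSeq DNA kit. CASAVA 1.9, STAR 2.1.1d and Cufflinks 2.0.2 are listed in the submitters' processing notes, as is mm9, and all coordinates are mm9, from the annotation the authors deposited. The authors deposited FPKM per gene and transcript part, with no scaling between libraries that the sources used here record, and per the file headers each library has a column for the coding part (CDS+) and one for the rest of the 3′ UTR (3UTR-). FPKM are not counts, so a model on the log scale was used. Fragments were estimated from the spacing of low FPKM (89.3 to 96.4% of low values lay within 0.15 of a whole read), by a rule chosen after the values were seen. Amplified fragments without molecular identifiers are not independent molecules.

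Libraries were scaled by median of ratios over genes above 0 throughout (672 genes for the 8 immunoprecipitates, 643 for the 11 libraries). limma 3.58.1 in R 4.3.3 fitted log2(scaled FPKM + 1) of genes with a mean of at least 1 (2935 or 2972), trended and two-sided, with Benjamini-Hochberg adjustment over all genes at 0.05. Differences on this scale are too small for genes at low levels. Members also had an exact permutation test. Only the limma fit between dendrite and soma was tested on simulated data, with large differences in genes above the median level. Alternatives were pseudocounts of 0.1 and 5, no minimum, no scaling, the single-end run, the 3′ UTR, a replicate block, robust moderation and each library left out. All 9 members were named, with the 2 most abundant tested genes of each wider list and the 2 nearest genes by r; one list and one nearest gene are not reported here. Members, lists and rules were chosen with earlier results of these data known. Sequences were not used here.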

Additional observations from a re-analysis of the deposited data

Results flagged for a closer look

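Psd was flagged because 1 library stood far from the other 3 of its group. In the coding part, the fear conditioned soma immunoprecipitate 2 had a scaled FPKM of 1.44, against 0.0318 in the fear conditioned soma immunoprecipitate 1 and 0 in both home cage soma immunoprecipitates. The single-end run had Psd above 0 in the same soma library alone, at 0.621. Of 18 groups of 4 values examined, 1 was flagged. The rule flags about 1 in 20 groups of normally distributed values by chance. Groups that hold zeros and mix both behaviours need not follow that rate.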

How the results depend on the processing

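No member passed the threshold under any setting. Over all genes, 1 was called between dendrite and soma without scaling and 1 in the single-end run, 1 for fear conditioning in soma without scaling and 1 for the interaction in the 3′ UTR, against 0 in each as reported. For immunoprecipitates against supernatants 6 were called at a pseudocount of 0.1, 19 without a minimum, 26 in the single-end run and 0 in the 3′ UTR, against 1. With each library left out in turn, calls ranged from 0 to 79 for dendrite and soma (79 without home cage soma 2), 0 to 78 for fear conditioning in dendrite (78 without fear conditioned dendrite 1), 0 to 175 in soma (106 without fear conditioned soma 2, 103 without home cage soma 1, 175 without home cage soma 2), 0 to 0 for the interaction and 1 to 2 for the supernatants; a lone library was assumed to vary like the other groups. The cause was not tested.

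Sign changes of members, all short of the threshold, were as follows. Between dendrite and soma, Iqsec2 had 0.26 at a pseudocount of 0.1 and 0.19 without scaling. For fear conditioning in dendrite, the single-end run gave Agap2 −0.084, Psd 1.31, Psd3 −0.96 and Sipa1l1 −0.74, a pseudocount of 5 gave Psd3 −0.025, and the 3′ UTR gave Sipa1l1 −0.11. In soma, the 3′ UTR gave Iqsec2 −3.18 and the single-end run Agap2 −0.25. For the interaction, the 3′ UTR gave Iqsec2 3.94 and Sipa1l1 −2.75, a pseudocount of 5 Agap2 0.059, a pseudocount of 0.1 Kalrn 0.88, and the single-end run Agap2 0.16, Trio 0.66, Psd 0.96 and Sipa1l1 −2.29. For the supernatants, no scaling gave Iqsec2 0.18 and Sipa1l1 0.12, a pseudocount of 0.1 Kalrn −0.54 and Trio −0.045, the single-end run Agap2 −0.090 and Kalrn −0.70, and the 3′ UTR Iqsec2 0.24, Agap2 −0.94, Kalrn −0.65, Psd 0.28, Psd3 0.36, Sipa1l1 0.42 and Rasgrp1 1.18.

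With each library left out in turn, log2 differences that changed sign ranged as follows: between dendrite and soma Iqsec2 −0.59 to 0.36; for fear conditioning in dendrite Agap2 −0.99 to 1.80, Trio −0.049 to 0.47 and Psd3 −1.53 to 1.92; in soma Kalrn −0.30 to 2.62, Trio −0.72 to 0.67 and Sipa1l1 −0.74 to 1.94; for the interaction Iqsec2 −1.47 to 0.41, Agap2 −1.74 to 1.05, Kalrn −1.84 to 1.08, Trio −0.46 to 0.92, Psd3 −2.41 to 1.04 and Sipa1l1 −0.50 to 2.26; for the supernatants Iqsec2 −0.39 to 0.42, Kalrn −0.87 to 0.65, Trio −0.30 to 0.59, Psd −0.70 to 0.14 and Sipa1l1 −0.75 to 0.27. Between dendrite and soma, Kalrn (−3.20 to −1.74), Trio (−1.86 to −1.17), Psd3 (1.45 to 3.18), Agap2 (1.12 to 2.51), Psd (0.70 to 1.81) and Sipa1l1 (0.26 to 1.64) kept their sign in every such fit they entered; Trio without home cage soma 2 and Psd without home cage dendrite 2 missed the minimum. Members lower in every dendrite library numbered 1 in the single-end run and 1 in the 3′ UTR, against 0.

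Libraries with the same replicate number did not deviate together (r of 0.063 and −0.0081 between dendrite and soma, −0.013 and −0.0016 between behaviours). The labels do not tie libraries to animals, and whether libraries of the same number shared animals was not tested. The difference between fear conditioned and home cage dendrite 2 had an r of −0.0069 between immunoprecipitates and their supernatants. With a replicate block, the calls were 0 in each immunoprecipitate comparison and 1 for the supernatants, as without it, and 148 against 130 genes had an unadjusted p under 0.05 between dendrite and soma. The block turned the supernatant differences of Kalrn (−0.20), Psd (0.14) and Sipa1l1 (0.32). The replicate block over the 3 immunoprecipitates with their own supernatant, added after the values were seen, called 0 genes (202 had an unadjusted p under 0.05) and turned Iqsec2 (0.17), Psd (0.55), Psd3 (0.085) and Sipa1l1 (0.86). A low value in the shallowest library, at 5.66 M fragments, rests on few fragments: the 0.158 of Psd there stands for about 3.06.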
